A study of Mus musculus with 5 samples.

Results

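The genes described here are 9 transcription factors of motor columns and motor pools, Foxp1, Foxp2, Foxp4, Etv4, Runx1, Onecut1, Onecut2, Mecom and Tbx20, in mouse embryonic stem cells that were differentiated to motor neurons. They were chosen by name, with earlier results of these data known. Every probe whose target accession carried one of these symbols was taken. This gave 19 of the 55681 mouse probes on the array and 9 of the 19893 genes that could be named. Wild-type male embryonic stem cells (ES) and their embryoid bodies at 4 later time points were each measured on 1 Agilent one-colour microarray from total RNA. The labels give 8 h of retinoic acid (RA) for Day2, 1 day for Day3, 2 days for Day4 and 5 days for Day7, the last also being called motor neurons, while their treatment protocol gives RA and Shh a window between day 2 and day 5. All 5 samples shared this genotype, the labels describe no sort, and no untreated embryoid bodies were analysed here.

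Spinal motor neurons are grouped into columns by the territory they innervate, and within the limb-innervating lateral motor column into pools, each of which serves a single muscle. Hox proteins set the columns along the rostrocaudal axis. Foxp1 acts as a Hox cofactor in lateral and preganglionic motor neurons, whereas Lhx3 and Mecom mark the medial column that serves axial muscle. Runx1 and Etv4 (also called Pea3) are expressed in separate motor pools, the Onecut factors are expressed in newborn motor neurons, and Tbx20 is a factor of branchial and visceral motor neurons of the hindbrain.

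A level below is the quantile-normalized log2 signal of a probe on 1 array, so a difference of 1 is 2-fold. Levels were compared between arrays for the same probe. Where a marker list is given by its summed signal, the brightest probes dominate the sum. Since each time point had 1 array, the spread between cultures is unknown and nothing was tested. A change is called raised or lowered where it reached 2-fold, a fixed rule of size. The error given is that of the scanner, about 0.14 on the log2 scale for a bright spot, and the median SD between spots of the 432 probes printed more than once was 0.06 to 0.11. Both leave out the variation between cultures. Where a probe did not clear background, the lowest level of any detected probe on that array, or its own level if higher, was used in its place, and a change measured against such a level is given as a lower bound (at least). Day7 was the only array on the second slide, so in every comparison with it the effects of the slide and of the time point cannot be told apart. The Day2 array stood apart, since 86.7% of its probes passed the background flag against 57.5 to 65.7% on the other 4 arrays. Levels given for Day2, and the distances between profiles over all 5 arrays, rest in part on it.

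On Day7 all 9 factors had at least 1 probe well above background, where 76.3% of all genes did. Of their 19 probes 18 were well above background, where 76.0% of all probes matched to a gene and 62.4% of all probes were. Most of the 9 genes had more than 1 probe, against 5337 of 19893 genes. A gene with more probes is more readily detected by at least 1. On the ES array 6 of the 9 genes were detected, on Day3 5 and on Day4 7, where 73.1%, 72.8% and 77.7% of all genes were. All 9 were detected on Day2 as well, where 92.0% of all genes were, so detection there says little about these genes. With another detection flag 8 of the 9 were detected on ES, 6 on Day3, 9 on Day4 and 9 on Day7. By that flag the number did not differ between Day4 and Day7, and the share of all genes was not computed for it. From Day4 to Day7, from the progenitor stage to the motor neuron culture, Etv4, Runx1, Onecut1, Onecut2 and Tbx20 were raised at least 2-fold and Foxp4 was lowered. These 5 of 9 stood against 18.1% of all genes raised, and the 1 of 9 against 18.1% lowered. The median change of the 9 was 1.19 on the log2 scale and that of all genes was -0.12. From ES to Day7 Onecut1, Onecut2 and Tbx20 were raised and Etv4 was lowered, which is 3 and 1 of 9 where 24.8% of all genes were raised and 24.4% lowered. That longer comparison therefore showed a share close to the background, with a median of 0.73 for the 9 and -0.07 for all genes. From ES to Day4, before the motor neuron stage, 8 of the 9 had a value. The 4 raised were Foxp4, Onecut1, Onecut2 and Mecom (background 17.0%), and the 3 lowered were Etv4, Runx1 and Tbx20 (background 14.4%). The values of Onecut1 (1.63), Mecom (1.33) and Tbx20 (-1.46) were bounds that rest on the level given to an undetected probe. The alternative settings were not run for this comparison. Whether more cells carried a transcript or each cell carried more of it cannot be told apart in these bulk samples.

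**Figure D1:**
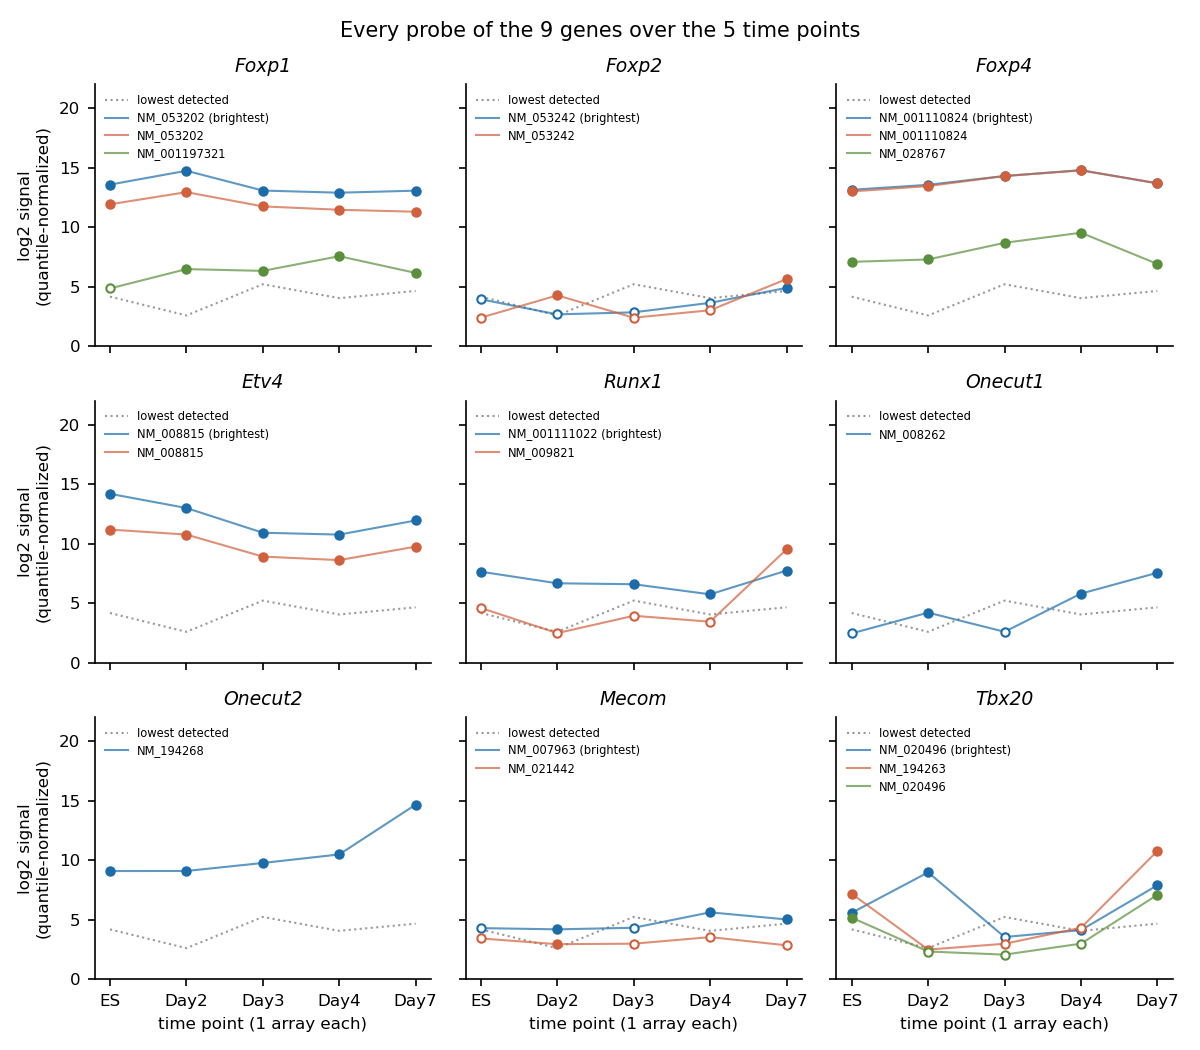
Quantile-normalized log2 signal (y axis) of every probe of the 9 genes on the 5 arrays (x axis, 1 array per time point), with 1 line per probe named by its target accession. Filled points were well above background and carry the scanner error, open points were not, and the dotted line is the lowest level of a detected probe on each array. Onecut2 ends at 14.66 on Day7 and the Foxp4 lines peak on Day4.

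The Onecut factors bind DNA through a cut domain and a homeodomain. Onecut2 had 1 probe, whose levels were 9.08 in ES, 9.08 at Day2, 9.76 at Day3, 10.47 at Day4 and 14.66 at Day7. It was detected on every array, and ES and Day2 differed by less than the scanner error of their difference, 0.20. The step from Day4 to Day7 was 4.18 on the log2 scale, or 18.2-fold, above the change of 97.8% of all genes with a value. From ES to Day7 the rise came to 47.7-fold. Genes were compared with it by the Euclidean distance between their levels over the 5 arrays, each gene centred on its own mean, and the profile nearest to that of Onecut2 among 18630 genes was that of Isl2, a LIM homeodomain factor of postmitotic motor neurons, at a distance of 0.27. The levels of Isl2 were 7.18, 7.29, 7.86, 8.37 and 12.55 in the same order of time points. Pkia, an inhibitor of protein kinase A, and Camk1g, a calmodulin-dependent kinase, came next at distances of 0.36 and 0.49.

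Onecut1 was not well above background on ES (2.47) or Day3 (2.60), read 4.21 on Day2, and was detected at 5.81 on Day4 and 7.56 on Day7. Leaving Day2 aside, it was thus detected on the last 2 arrays. Its change from Day4 to Day7 was 1.75 ± 0.24 (scanner error), or 3.37-fold, and from ES to Day7 it was at least 10.4-fold. The latter bound, 3.38 on the log2 scale, was 2.32 with undetected probes set at the 1st percentile of detected ones instead of their lowest level, and 1.57 after normexp background correction, which also brought the change from Day4 down to 1.095. Its nearest profiles were those of Ranbp6, Aph1b and Irgq, at distances of 0.16 to 0.21. Onecut3, the remaining paralog and not one of the 9, went from 5.02 on Day4 to 10.95 on Day7, or 61.0-fold, and was not well above background on ES (2.85). All 3 Onecut genes were therefore raised from Day4 to Day7. The start of Onecut1 lies in sequence rich in CpG, with 38 CpG in 300 bases where the median of 32851 mouse promoters is 7. The promoter is printed from RefSeq on GRCm38.p6 for the plus strand of chr9:74861671-74861970, from 250 bases before to 50 after the start, because it can be set beside that of Runx1 below. Capitals mark GGGCGG, the GC box bound by Sp1, on either strand, which 35.7% of all promoters hold.
Onecut1: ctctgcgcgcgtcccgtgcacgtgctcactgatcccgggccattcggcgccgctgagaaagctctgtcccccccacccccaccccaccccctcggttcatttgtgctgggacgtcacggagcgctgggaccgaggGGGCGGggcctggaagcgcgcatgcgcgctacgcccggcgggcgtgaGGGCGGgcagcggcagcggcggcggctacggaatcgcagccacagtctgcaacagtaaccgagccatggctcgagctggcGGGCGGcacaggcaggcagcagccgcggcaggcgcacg

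**Figure D2:**
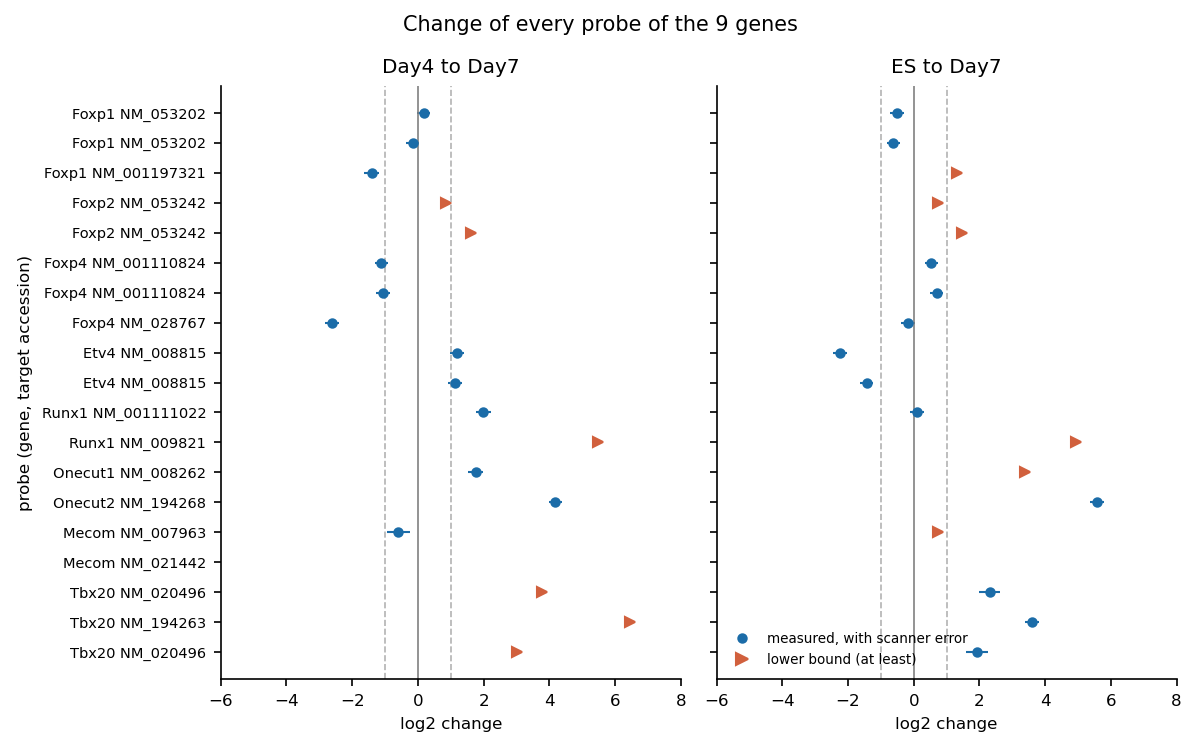
Log2 change of every probe of the 9 genes (y axis, gene and target accession) from Day4 to Day7 at left and from ES to Day7 at right. Circles with bars are changes between 2 detected levels with the scanner error, triangles are lower bounds, dashed lines mark 2-fold, and the second Mecom probe has no value. From Day4 to Day7 10 of the 19 probes lie at or beyond 2-fold to the right and 4 to the left. Of all genes, each by the probe that stood for it, 18.1% were raised and 18.1% lowered.

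Tbx20 is a T-box factor known from heart development and from cranial motor neurons. Its probe with the highest mean, which stood for the gene, read 5.57 on ES, 8.97 on Day2, 7.88 on Day7, and did not clear background on Day3 (3.53) or Day4 (4.11). A second probe, to the transcript NM_194263, read 7.16 on ES and 10.77 on Day7 and was not well above background on Day2 (2.48), Day3 (2.97) or Day4 (4.31). The third read 5.16 on ES and 7.08 on Day7 and was likewise not well above background at the 3 time points between. All 3 probes were thus detected at both ends of the course and not on Day3 or Day4, and the high Day2 level was seen with 1 probe of 3, on the array that stood apart. From Day4 to Day7 the first rose at least 13.6-fold, the second at least 87.9-fold and the third at least 8.15-fold. The rise of the first exceeded the change of 97.1% of all genes with a value. From ES to Day7 the probes rose by 2.31, 3.60 and 1.92 on the log2 scale, with scanner errors of 0.32, 0.22 and 0.33. After normexp background correction the Day4 to Day7 rise of the first probe was 1.71 and its ES to Day7 rise 1.17. The nearest profiles were taken for the first probe alone, with its Day2 level that the other 2 probes lack, and lay at 0.99 for 1700024G13Rik, 1.12 for Tspoap1 and 1.24 for Vav3, all of them highest on Day2.

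All 4 cardiac markers, Nkx2-5, Gata4, Myh6 and Tnnt2, were lowered from Day4 to Day7, for example Nkx2-5 from 8.21 to 5.46 and Gata4 from 8.69 to 6.14, and their summed normalized signal was 1020.8 on Day4 and 266 on Day7. Companion genes of hindbrain motor neurons were split. Phox2a, a homeodomain factor of cranial motor neurons, went from 10.40 to 13.29, and Tbx2 from 9.32 to 11.57. Tbx3 (10.52 and 10.57), Gata2 (9.49 and 9.05) and Gata3 (10.12 and 9.67) stayed within 2-fold. Of these 6 genes, Tbx20 itself included, 3 were raised and 0 lowered, with a median change of 1.15 (18.1% of all genes each way, median -0.12). The part of either cell type in the Tbx20 signal was not tested. The Tbx20 promoter is printed because its start, too, lies among CpG, with 26 in 300 bases, on the minus strand of chr9:24774254-24774553 (RefSeq, GRCm38.p6). Capitals mark GGGCGG on either strand. The T-box letters AGGTGTGA, which 1.28% of all promoters hold, were not found in this window.
Tbx20: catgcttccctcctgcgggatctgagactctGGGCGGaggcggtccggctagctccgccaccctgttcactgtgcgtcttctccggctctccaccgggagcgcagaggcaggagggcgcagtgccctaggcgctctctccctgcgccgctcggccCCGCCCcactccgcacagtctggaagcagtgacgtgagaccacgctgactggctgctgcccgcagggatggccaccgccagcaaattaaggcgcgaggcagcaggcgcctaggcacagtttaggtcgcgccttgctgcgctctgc

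Runx1 is a runt-domain factor of blood stem cells and, in the cervical cord and hindbrain, of a subset of motor neurons. Its 2 probes gave different courses. The probe to NM_001111022, which stood for the gene, was well above background throughout, at 7.65 in ES, 6.67 at Day2, 6.60 at Day3, 5.75 at Day4 and 7.74 at Day7. It fell by 1.90 from ES to Day4, was raised by 1.99 ± 0.23 (scanner error) from Day4 to Day7 (1.23 after normexp background correction), and differed between ES and Day7 by 0.09, less than the scanner error of 0.21. The probe to NM_009821 was not well above background on ES (4.60), Day2 (2.49), Day3 (3.94) or Day4 (3.45), and read 9.52 on Day7. Its rise was at least 44.4-fold from Day4 and at least 30.3-fold from ES. Both probes rose from Day4 to Day7, and whether Day7 exceeded ES depended on the probe. By the first probe, the nearest profiles were those of Sh3yl1, Irf2bpl and Chst1, at distances of 0.25 to 0.35.

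Runx1 has distal and proximal starts, whose promoters are printed because they differ in base composition. Which start the transcripts read by each probe used was not determined. The distal one, on the minus strand of chr16:92826025-92826324, held 2 CpG, and the proximal one, on the minus strand of chr16:92697280-92697579, held 35. Capitals mark ACCACA, the reverse complement of TGTGGT, which is the core of the Runx binding site and is found on either strand in 16.8% of all promoters. The distal window held 2 such matches, at positions 28 and 36 counted from the start as 0, and the proximal window held none. The other letters searched on both strands were CAGCTG (in 16.3% of all promoters), TAATTA (5.29%), ATCAAT or ATCGAT (8.40%), TGTTTAC (3.65%), AGGTCA (16.3%) and TATAAA (13.6%). None of them was found in the 4 windows printed here, and no matches overlapped. A match, or its absence, describes the letters only.
Runx1 distal: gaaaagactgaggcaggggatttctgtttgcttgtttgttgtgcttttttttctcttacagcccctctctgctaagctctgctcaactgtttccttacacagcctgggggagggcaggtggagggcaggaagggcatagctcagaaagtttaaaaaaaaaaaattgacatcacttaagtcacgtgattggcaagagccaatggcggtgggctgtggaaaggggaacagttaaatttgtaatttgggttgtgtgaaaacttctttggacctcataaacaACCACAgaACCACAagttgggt
Runx1 proximal: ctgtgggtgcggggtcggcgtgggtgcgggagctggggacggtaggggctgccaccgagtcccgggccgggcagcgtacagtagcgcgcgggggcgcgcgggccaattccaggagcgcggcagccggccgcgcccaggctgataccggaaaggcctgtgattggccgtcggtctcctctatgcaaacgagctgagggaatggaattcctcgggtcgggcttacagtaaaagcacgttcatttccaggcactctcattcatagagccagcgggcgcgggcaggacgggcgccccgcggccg

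Runx1 is also known from blood and endothelium. On Day7 none of the 3 blood markers with a probe was well above background, with Ptprc at 3.54, Gata1 at 4.02 and Spi1 at 2.46. Of the endothelial markers, Kdr was at 13.25 on Day4 and 13.65 on Day7 and Cdh5 went from 6.96 to 8.57, while Pecam1 went from 7.84 to 7.05 and Tek was not well above background on either array. The part of blood or endothelial cells in the Runx1 signal was not tested. Among the Runx family, Runx3 read 5.87 on Day4 and 5.85 on Day7, Runx2 was detected on Day2 alone, the array that stood apart, and Cbfb, the shared partner of the Runx proteins, read 13.81 and 14.04. The spinal accessory list, of which Runx1 is a member, was split. Runx1 rose, whereas Nkx2-9, a factor of spinal accessory progenitors, went from 12.89 to 10.23 and Bcam from 12.62 to 8.48.

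Etv4, an ETS factor that is also induced by FGF signalling, fell first and then rose. The probe that stood for it read 14.19 in ES, 13.00 at Day2, 10.92 at Day3, 10.76 at Day4 and 11.95 at Day7, and the other probe 11.19, 10.77, 8.92, 8.62 and 9.75. The courses ran the same way at each step, and Day3 and Day4 differed by 0.16 for the first probe, less than the scanner error of 0.20. From ES to Day4 the first probe fell by 3.43 on the log2 scale, and 0.916% of all genes with a value fell further. From Day4 to Day7 the rises were 2.27-fold and 2.20-fold. Day7 remained below ES for both, by 4.73-fold and 2.70-fold. Within the same family, Etv5 read 15.67 on ES, 12.51 on Day4 and 13.15 on Day7, and it was the second nearest profile to that of Etv4, at a distance of 0.62, after Ccdc116 at 0.58 and before Cyria at 0.65. Etv1, a further ETS factor of motor pools, read 12.35 on ES, 9.99 on Day4 and 11.64 on Day7.

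Of the 12 pool genes, Etv4 and Runx1 among them, 8 were raised and 0 lowered at least 2-fold from Day4 to Day7, where 18.1% of all genes were raised. Their median change was 1.62, against -0.12 for all genes. Pou3f1 (also called Scip), a POU factor of a caudal limb pool and of the phrenic column, went from 9.56 to 11.66, and like Etv4 it stood higher on ES, at 14.55. Ret and Gfra1, the receptor chains for the muscle-derived factor GDNF, went from 8.37 to 11.29 and from 6.05 to 8.22. Cdh7, an adhesion molecule of pools, was not well above background on Day4 (3.19) and read 6.38 on Day7, while Cdh8 (7.01 and 7.19), Cdh20 (5.15 and 5.02), Sema3e (6.08 and 6.35) and Nkx6-2 (9.51 and 9.21) stayed within 2-fold. From ES to Day7 the same list was split, with 5 raised (24.8% of all genes) and 4 lowered (24.4%) and a median of -0.15, against -0.07 for all genes.

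Foxp1, Foxp2 and Foxp4 are forkhead repressors. Foxp1 was bright throughout, and its main probe read 13.59 in ES, 14.75 at Day2, 13.09 at Day3, 12.91 at Day4 and 13.08 at Day7. Its highest level was on the array that stood apart, and on the other 4 arrays it stayed within 0.68. The change from Day4 to Day7 was 0.17, less than the scanner error of 0.20. A second probe to the same transcript, NM_053202, read 11.93, 12.96, 11.76, 11.47 and 11.31, which follows the same order apart from the last step. The probe to NM_001197321 was not well above background on ES (4.86) and read 6.49, 6.34, 7.57 and 6.17 on the later arrays, so it was raised at least 6.54-fold from ES to Day4 and lowered 2.65-fold from Day4 to Day7. By the probe that stood for the gene, Foxp1 was not called in any of the 3 comparisons. With the arrays shifted to a common 75th percentile instead, its ES to Day7 change was -1.10, where the median of all genes was -0.35. Its nearest profiles, Col25a1, Lipf and Elmo1, at distances of 0.17 to 0.21, shared the single high level on Day2.

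Foxp4, which is expressed in neural progenitors as they begin to differentiate, rose to Day4 and then fell. The 2 probes to NM_001110824 read 13.15 and 13.01 on ES, 14.80 and 14.78 on Day4, and 13.69 and 13.71 on Day7. The probe to NM_028767 read 7.10 in ES, 7.30 at Day2, 8.70 at Day3, 9.55 at Day4 and 6.92 at Day7. All 3 were highest on Day4, and each step up to it was positive. From ES to Day4 they were raised 3.14-fold, 3.40-fold and 5.45-fold, and from Day4 to Day7 they were lowered 2.17-fold, 2.10-fold and 6.15-fold. Without normalization between arrays the Day4 to Day7 change of the first probe was 0.04, with the median of all genes at 1.06, so the fall holds relative to the other genes on the array. Of the 3 markers of motor neuron progenitors, Olig2 went from 11.47 to 7.35 and Pax6 from 10.28 to 5.17 over the same step (a second Pax6 probe changed by -0.96), while Nkx6-1, which motor neurons also express, was raised from 12.73 to 14.31. The nearest profile was that of Rcn1, at a distance of 0.07, followed by Olfr917, which on ES, Day3 and Day7 stood at the level given to undetected probes, and by Fbf1.

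Foxp2, known from circuits for vocal and motor learning, was near the limit of detection. Its probes were well above background together on Day7 only, at 4.92 and 5.65. The second was also detected on Day2 (4.29), and neither was on ES, Day3 or Day4. The first rose at least 1.82-fold from Day4 to Day7 and the second at least 3.03-fold, so 1 of the 2 probes passed 2-fold, and the gene, represented by the first, was not called. That call changed with the setting. The Day4 to Day7 change was 1.26 with another detection flag or with undetected probes at their own level, 1.23 as a mean over both probes, 1.60 with the dimmer probe and 1.92 without normalization, but 0.37 with undetected probes set at the 1st percentile of detected ones and 0.21 after normexp background correction. On Day7 their scanner errors were 0.32 and 0.21 on the log2 scale. Foxp3, the remaining gene of the family, read 5.75 on Day4 and 5.34 on Day7.

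Mecom (also called Evi1), a zinc-finger factor of the PRDM family, was the 1 gene of the 9 with a probe not well above background on Day7. Its probe to NM_007963 was not well above background on ES (4.28) or Day3 (4.31), and read 4.18 on Day2, 5.61 on Day4 and 5.01 on Day7. The fall from Day4 to Day7 was 0.60 ± 0.34 (scanner error) and did not reach 2-fold. The probe to NM_021442 was detected on Day2 alone, the array that stood apart, at 2.93. Prdm16, its paralog, went from 6.41 on Day4 to 10.17 on Day7, or 13.5-fold. Of the other 4 genes of the medial column list 2 were raised from Day4 to Day7, as were 18.1% of all genes. Lhx3 went from 9.50 to 11.27 and Lhx4 from 6.89 to 10.65, while Ebf2 (7.85 and 7.66) and Fgfr1 (12.86 and 13.80) stayed within 2-fold.

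**Figure D3:**
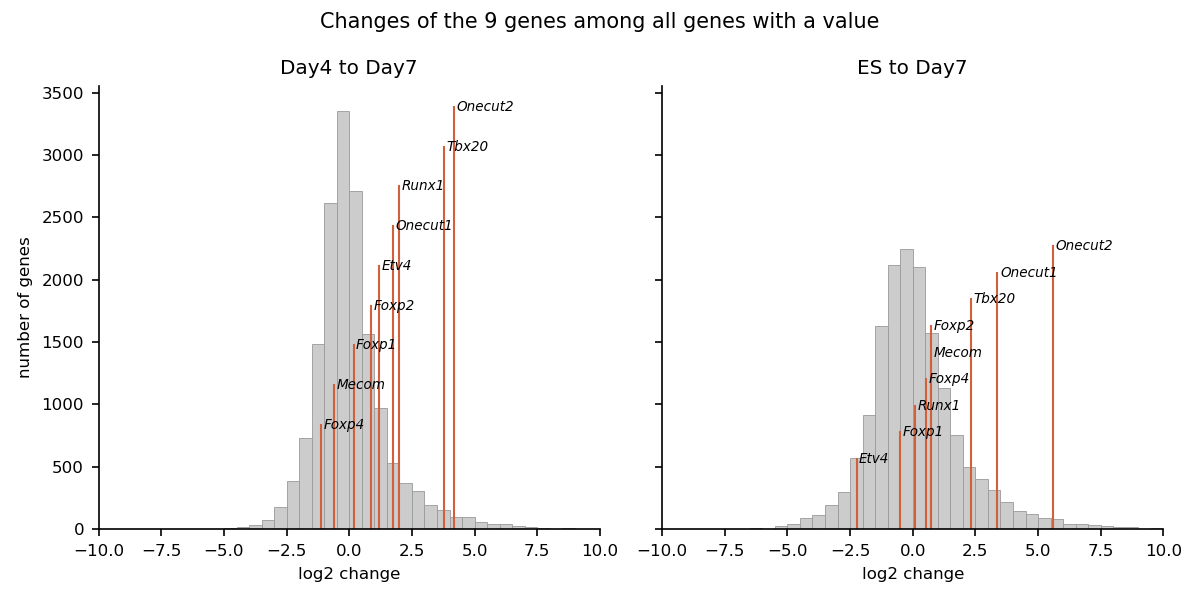
Number of genes (y axis) by log2 change (x axis, bins of 0.5, with the few changes beyond 10 in the last bin) from Day4 to Day7 at left, for 16078 genes with a value, and from ES to Day7 at right, for 15834. Red lines mark the 9 genes, each by the probe that stood for it, and their height has no meaning. Onecut2 and Tbx20 lie in the right tail at left, and Etv4 lies on opposite sides of 0 in the 2 panels.

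Other genes of the columns showed what accompanied the 9 on Day7. In the lateral column list, 4 of 6 were raised from Day4 to Day7 and 1 was lowered, with a median of 3.07, where 18.1% of all genes were raised, 18.1% lowered and the median was -0.12. Aldh1a2, the RA-synthesizing enzyme of limb-innervating motor neurons, went from 7.76 to 14.85, or 136-fold. Isl1 went from 8.19 to 13.25 and Epha4, a guidance receptor of the lateral division, from 8.41 to 10.37. Lhx1, the LIM factor of that lateral division, was lowered from 7.89 to 6.44. Foxp1, the defining factor of the list, was the member within 2-fold. Of the 5 phrenic genes 4 were raised, with a median of 3.50, among them Alcam from 6.13 to 10.20 and Ptn from 8.87 to 12.36, while Tshz1 was at 13.68 and 14.01. Of the 4 hypaxial and preganglionic genes, Etv1 and Zeb2 were raised, and Nos1, the enzyme that marks preganglionic neurons, was at 6.29 and 5.71.

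The Hox genes gave the rostrocaudal setting of these columns. Of 12 cervical and brachial Hox genes, 3 were raised and 4 lowered from Day4 to Day7 (18.1% of all genes each way). Hoxa5 went from 12.23 on Day4 to 13.33 on Day7 and Hoxc5 from 11.91 to 12.45, and Hoxb5 read 15.13 on Day7. Hoxc6, the Hox gene of the brachial lateral column, went from 9.39 to 8.34. Hoxc8, which is required for the Etv4 and Pou3f1 pools in the caudal brachial cord, was detected on Day4 (6.46) and not well above background on Day7 (2.68). Its paralog Hoxb8 was lowered from 11.12 to 10.03 and Hoxa7 from 10.22 to 7.43, both still detected, while Hoxb6 (13.81 and 14.37) and Hoxb7 (11.28 and 11.30) stayed within 2-fold. Of 10 thoracic and lumbar Hox genes 4 were detected on Day4 and 1 on Day7, where 77.7% and 76.3% of all genes were, the 1 being Hoxa9, whose 2 probes changed in opposite directions. Hoxb9 fell at least 25.5-fold and Hoxc9 at least 29.3-fold.

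**Figure D4:**
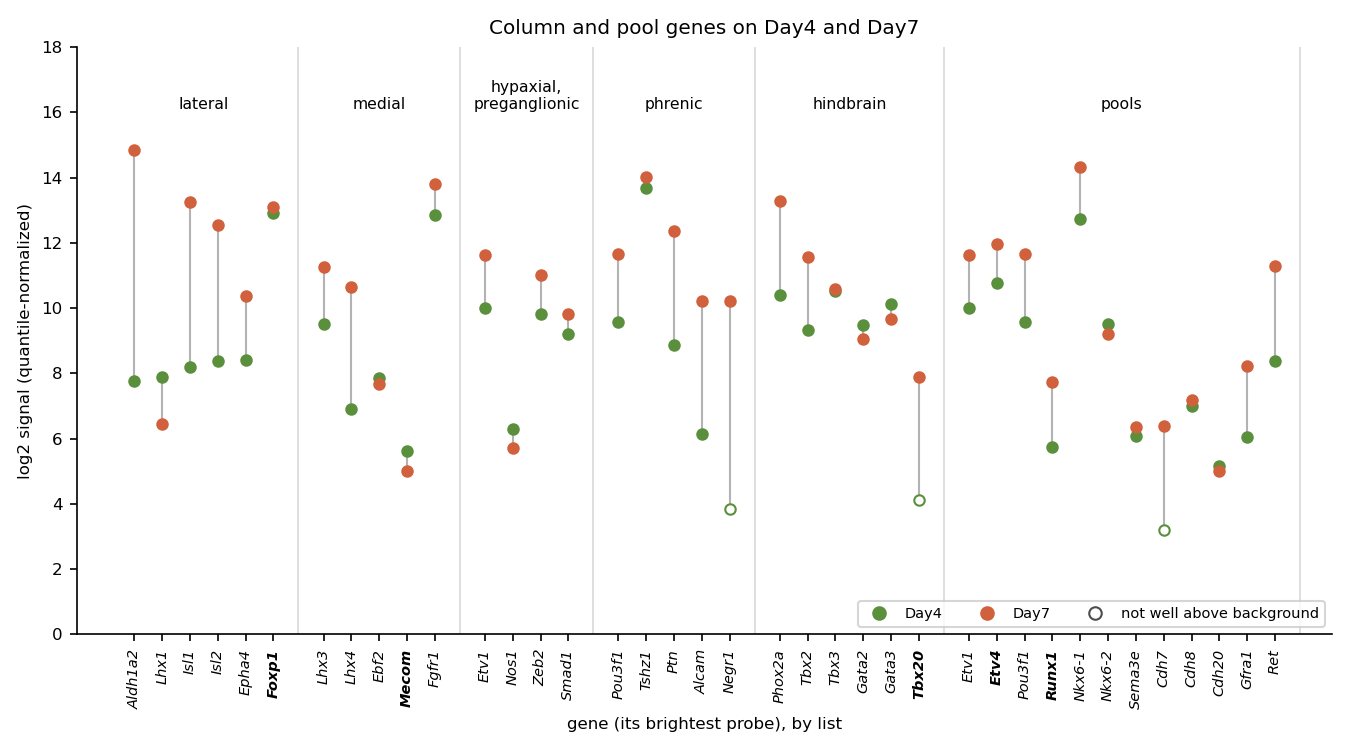
Quantile-normalized log2 signal (y axis) on Day4 (green) and Day7 (red) of the genes of 6 column and pool lists (x axis), each by its brightest probe. Those of the 9 factors that are in these lists, Foxp1, Mecom, Tbx20, Etv4 and Runx1, are in bold. Open points were not well above background, levels are comparable within a gene only, and Etv1 and Pou3f1 stand in 2 lists. The largest gap in the lateral list is that of Aldh1a2, from 7.76 to 14.85, and Foxp1 is nearly level.

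Markers of the floor plate and of V3 interneurons were raised on Day7 along with those of motor neurons. From Day4 to Day7 18.1% of all genes were raised. All 6 motor neuron markers were raised over this step, with Chat, the acetylcholine-synthesizing enzyme, going from 6.09 to 12.21. The summed normalized signal of these 6 was 2194 on Day4 and 75890 on Day7. All 5 floor plate markers were raised too, with Shh not well above background on Day4 (3.01) and at 12.71 on Day7, and their sum was 5443 and 65811. Markers of V3 interneurons rose, with Sim1 not well above background on Day4 (2.88) and at 8.60 on Day7, while in the list of V1 and V2 interneurons Tal1 was raised from 6.58 to 7.67, Sox14 (5.34 and 5.69) and Gata3 stayed within 2-fold, and En1 was not well above background on any array. Of the dorsal interneuron markers 0 were raised. Lbx1 was detected on Day4 (5.68) and not well above background on Day7 (4.55). Barhl1 (10.20 and 9.93) stayed within 2-fold, and Tlx3 was not well above background on either array. The neuronal genes Tubb3, Stmn2 and Elavl4 were all raised. Etv4, Onecut1, Onecut2, Runx1 and Tbx20 rose over the same step as the motor neuron, floor plate and V3 markers. The share of each cell type in the signal of these factors was not tested.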

How the data were processed

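Total RNA of 5 samples, 1 per time point, was hybridised to Agilent one-colour arrays. Per the labels, spots were extracted with Agilent Feature Extraction 10.5.1. The authors deposited the scanner intensity of each spot, background-subtracted and detrended but not normalized, with detection flags, and a table of log2 values that equalled the log2 processed signal minus a constant per array for at least 99.99% of probes within 0.01. Quantile normalization was chosen because a heat map legend of the study names quantile analysis.

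Here outlier and control spots were dropped, the log2 values of a probe's spots were averaged, and arrays were quantile-normalized in limma 3.58.1 (R 4.3.3). Other steps used Python 3.11.15, numpy 2.4.6, pandas 2.3.3 and matplotlib 3.10.9. Of 55681 probes 26294 were named through RefSeq accessions of GRCm38.p6, to 19893 genes. For 5337 genes with several probes, the one with the highest mean over the 5 arrays stood for the gene. Median scanner error lay between 0.15 and 0.21 log2 units. No probe was saturated among spots used. Where a detected level did not exceed the level given to the undetected probe on the other array, the change was set to 0. These values of 0 entered the medians and the totals behind the shares. The steps were tested on simulated data.

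The members and lists were chosen with earlier results of these data known. Named genes were the 9 factors, the column, pool, Hox and marker lists, and for each factor the 3 genes with the smallest Euclidean distance between centred levels over the 5 arrays. Alternatives were a shift to the 75th percentile, no normalization, normexp with an offset of 50 on median spot signals (the mean spot signal was not used here), the deposited log2 table, another detection flag, no floor, detection on both arrays, the mean over probes, and 1.5-fold and 4-fold. Promoters and motif counts came from a RefSeq table of 32851 windows. It held 10 promoters of 6 of the 9 genes, and none of Etv4, Foxp2 or Onecut2. The marker Hbb-b1 had no matched probe. A pair of genes of these lists is not reported here.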

Additional observations from a re-analysis of the deposited data

How the results depend on the processing

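With 1 array per time point the spread between cultures is unknown, and dim probes near background limit Foxp2, Mecom and Onecut1. The members lowered from ES to Day7 became 2 under the shift to the 75th percentile (32.3% of all genes) and 2 with the deposited log2 table (32.2%), where Foxp1 reached -1.10 and the median of all genes was -0.35. The members raised from ES to Day7 became 5 with the mean over all probes (24.2% of all genes), 5 at 1.5-fold (33.0%), 6 with the dimmest probe of each gene (25.1%), and 2 with detection on both arrays (20.9%). The members lowered from Day4 to Day7 became 0 without normalization (3.33% of all genes), 2 at 1.5-fold (31.1%), 0 at 4-fold (4.36%), and 2 with the dimmest probe (20.4%). The members raised from Day4 to Day7 became 2 at 4-fold (8.76% of all genes) and 7 without normalization (52.1%), and lay between 4 and 6 otherwise. Without normalization Foxp4 turned from -1.12 to 0.038 from Day4 to Day7, and 94.0% of the genes past 2-fold were raised, against 49.9% with quantile normalization. With the shift to the 75th percentile 40.5% of the genes past 2-fold from ES to Day7 were raised, against 50.4% with quantile normalization. The cause was not tested beyond the choice of scaling, probe or fold that each alternative names. With the dimmest probe Foxp1 turned from -0.51 to 1.30 from ES to Day7 and from 0.17 to -1.41 from Day4 to Day7. Of 191 values of single genes under alternatives, 3 reversed (the pair of Foxp1 and that of Foxp4), 12 newly passed 2-fold, 170 kept their side of 2-fold without a change of sign, and 6 changed sign within 2-fold, for Foxp1, Foxp4 and Mecom.

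The alternatives of a lowest level at the 1st percentile, normalization without the Day2 array, and the dimmest probe were chosen after seeing the data. Onecut2 lay between 3.85 and 5.17 and Tbx20 between 1.71 and 5.18 from Day4 to Day7 over the alternatives that gave a value. Tbx20, not detected on Day4, had none where detection on both arrays was asked for. No paired analysis was possible because no group had a second array. A block for the slide could not be fitted for the same reason, and the planned naming of probes by a gene name column was not run, so all names come from accessions.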
